A study of Mus musculus with 6 samples.

Results

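The genes of the major histocompatibility complex (MHC) and of antigen processing were examined in mouse cortex after MCAO, the surgical blockage of the middle cerebral artery that models an ischaemic stroke. The set was drawn up with earlier results of these data known. Members were taken by symbol: every row whose symbol starts with H2- plus a fixed set of named partner genes (B2m, Tap1, Tap2, Tapbp, Tapbpl, Cd74, Ciita, Nlrc5, Psmb8, Psmb9, Psmb10, Psme1, Psme2, Erap1, Cd1d1 and Mr1). This gave 59 of the 24421 genes in the count table. Of these, 15 had 0 counts in all 6 libraries, 10 had some counts but too few to test, and 34 passed the filter on low counts. Samples were brain of C57BL/6 mice with MCAO, described as cortex in the series' design text, 3 treated with the control protein GFP, a fluorescent marker, and 3 with NeuroD1, which drives neuronal differentiation as a transcription factor. The series title speaks of an intravenous gene therapy and of neurovascular damage, and the comparison asks what differs in the cortex when NeuroD1 replaces GFP. The sources used here do not give the vector, its promoter, the time after stroke, or the sex and age of the mice. Nothing in the labels says that the 3 samples of a group came from separate animals, so p-values reflect only sample-to-sample spread, which may be technical.

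MHC class I molecules sit on nearly all nucleated cells and show peptides from the cell's own proteins to CD8 T cells. Proteasomes cut these peptides, the TAP transporter moves them into the endoplasmic reticulum, and there they are trimmed and loaded onto a heavy chain paired with beta-2 microglobulin. Class II molecules, pairs of an alpha and a beta chain, are made by dendritic cells, B cells, macrophages and activated microglia and show peptides from engulfed material to CD4 T cells. The invariant chain Cd74 holds the class II groove until H2-DM exchanges its remnant for a peptide. Ciita switches on class II genes, and its relative Nlrc5 does the same for class I genes. Healthy brain tissue makes little of either class, and both are known to increase after injury.

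Libraries held 7753101 to 9698795 counts with GFP and 10843273 to 13440244 with NeuroD1. Levels below are CPM, each gene's share of its library's counts on a common scale, after TMM scaling, a correction for library composition. Neurod1 itself was at 6.48, 3.87 and 5.43 CPM with GFP and 48.5, 14.6 and 38.4 CPM with NeuroD1, with every NeuroD1 library above every GFP library. Its edgeR adjusted p was 0.136 and its DESeq2 adjusted p 1.08e-05. The cortical neuron transcripts Slc17a7 and Snap25 were abundant in every library, at 369 to 1860 CPM and 686 to 1820 CPM. The lowest level of both was in NeuroD1 replicate 2. Among the MHC and antigen processing genes a single GFP library stood apart. GFP replicate 1 had the lowest level of the 6 libraries in 26 of the 34 tested members, against 13% of all tested genes. At the other end, NeuroD1 replicate 2 had the highest level in 21 of the 34, against 29% of all tested genes. Values without GFP replicate 1 are therefore given beside results that it moves.

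Promoters of class II genes are known for an ordered array called the X box and the Y box, bound by the RFX and NF-Y complexes that recruit Ciita. The windows of 3 class II members and of B2m are shown so that this array can be set beside the levels below. H2-Aa and H2-Eb1 are class II chains that were higher with NeuroD1, H2-DMb1 is a class II loading gene whose groups overlapped, and B2m is the class I light chain. Each window runs from 250 bases before to 50 bases after the annotated start, on the gene's own strand, 5′ to 3′ (RefSeq, GRCm38.p6). Capitals mark matches on either strand to 4 motifs. These are the core letters of the X box, AACNGATG, the Y box, CTGATTGG, the inverted CCAAT element that each Y box contains, ATTGG when read on the printed strand, and an interferon response element, GAAANNGAA.
H2-Aa, chr17:34287774-34288073, minus strand: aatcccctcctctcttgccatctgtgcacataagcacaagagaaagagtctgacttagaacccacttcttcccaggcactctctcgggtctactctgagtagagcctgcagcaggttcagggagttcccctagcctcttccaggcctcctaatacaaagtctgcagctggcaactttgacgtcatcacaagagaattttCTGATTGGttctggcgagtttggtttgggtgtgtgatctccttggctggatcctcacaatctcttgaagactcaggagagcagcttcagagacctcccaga
H2-Eb1, chr17:34305617-34305916, plus strand: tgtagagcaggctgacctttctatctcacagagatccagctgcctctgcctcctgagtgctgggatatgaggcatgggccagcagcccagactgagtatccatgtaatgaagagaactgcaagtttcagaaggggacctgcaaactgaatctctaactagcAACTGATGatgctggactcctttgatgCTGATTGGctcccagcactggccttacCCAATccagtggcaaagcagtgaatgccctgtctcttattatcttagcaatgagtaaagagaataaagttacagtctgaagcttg
H2-DMb1, chr17:34152941-34153240, plus strand: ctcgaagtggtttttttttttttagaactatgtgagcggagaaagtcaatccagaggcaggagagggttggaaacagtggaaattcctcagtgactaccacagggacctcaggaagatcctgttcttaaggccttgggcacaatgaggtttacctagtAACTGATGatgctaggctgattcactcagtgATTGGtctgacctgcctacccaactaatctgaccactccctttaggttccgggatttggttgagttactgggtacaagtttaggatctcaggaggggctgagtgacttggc
B2m, chr2:122147437-122147736, plus strand: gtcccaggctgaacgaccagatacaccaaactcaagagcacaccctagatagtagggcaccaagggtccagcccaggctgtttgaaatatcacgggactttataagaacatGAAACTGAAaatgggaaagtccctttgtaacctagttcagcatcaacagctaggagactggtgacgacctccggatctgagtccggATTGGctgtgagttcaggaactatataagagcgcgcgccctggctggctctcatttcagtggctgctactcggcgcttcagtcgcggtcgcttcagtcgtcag
In H2-Eb1 the X box core began 89 bases and the Y box 62 bases before the start. The H2-DMb1 window held an X box core at 92 bases and an inverted CCAAT at 61 bases, and the H2-Aa window a Y box at 51 bases with no match to these X box letters. In B2m an interferon response element lay 139 bases and an inverted CCAAT 53 bases before the start. Windows were found for 41 of the 59 members, 23 of them tested, and 7 of those were class II genes. The X box core occurred in 3 of these 7 (H2-Eb1, H2-DMb1 and H2-DMb2) and in 2.32% of all 32851 windows. The Y box occurred in 3 of the 7 (H2-Aa, H2-Eb1 and H2-Oa) and in 4.10% of all windows, and the inverted CCAAT in 7 of 7 and in 37.4%. The interferon response element occurred in 0 of the 7, in B2m, Erap1, H2-T23 and Psme1 among the tested members, and in 8.56% of all windows. A member was counted if any of its windows matched, while the shares are per window. The letters were chosen after these windows had been seen, so the counts beside the shares are not a test. H2-Ab1, Cd74 and Ciita, also higher with NeuroD1, had no window. Class II genes with a difference in level (only H2-Aa and H2-Eb1 here) and without one thus carried some of these letters. They describe the sequence and not its use.

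Mean levels of the class II chains H2-Aa, H2-Ab1 and H2-Eb1, of Cd74 and of Ciita were 2.44-fold to 2.68-fold higher with NeuroD1, and that of the peptide-trimming enzyme Erap1 2.61-fold. In the DM and DO genes of class II loading, in the classical class I chains H2-K1, H2-D1 and B2m, and in the other peptide supply genes the groups overlapped. By edgeR's quasi-likelihood test with Benjamini-Hochberg adjustment over all 14852 tested genes, 0 of the 34 tested members passed 0.05, as did 0% of all tested genes, so nothing below rose or fell by that criterion. The smallest adjusted p among members was 0.136. At an unadjusted p under 0.05 there were 7 members with higher levels (12.5% of all tested genes were) and 2 with lower levels (11.5%). The 7 were H2-Ab1, H2-Aa, H2-Eb1, Cd74, Ciita, Erap1 and H2-M3, and the 2 were H2-K2 and H2-Ke6. Without NeuroD1 replicate 1 there were 3 higher (7.79% of all tested genes) and 2 lower (5.56%). The groups did not overlap in 10 members on the higher side (14.2% of all tested genes) and 2 on the lower (15.3%). DESeq2, run as an alternative, called 3 of the 36 members it tested higher (5.07% of all genes it tested) and 2 lower (3.93%). The 3 were Erap1, Ciita and H2-Ab1. DESeq2 called 0 members when GFP replicate 3 (1.06% of all genes higher) or NeuroD1 replicate 1 (1.24% higher) was left out. Limma-voom called 0 of the 34 members and 0% of all 14852 tested genes at an adjusted p under 0.05. The median log2 fold change of the 34 was 0.31, beside 0.02 over all tested genes, and 27 of 34 lay above 0 (51.7% of all tested genes did). Without GFP replicate 1 the median was 0.09, 22 of 35 lay above 0 (50.6% of all tested genes), and 6 were higher (14.2%) and 5 lower (13.7%) at an unadjusted p under 0.05.

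**Figure D1:**
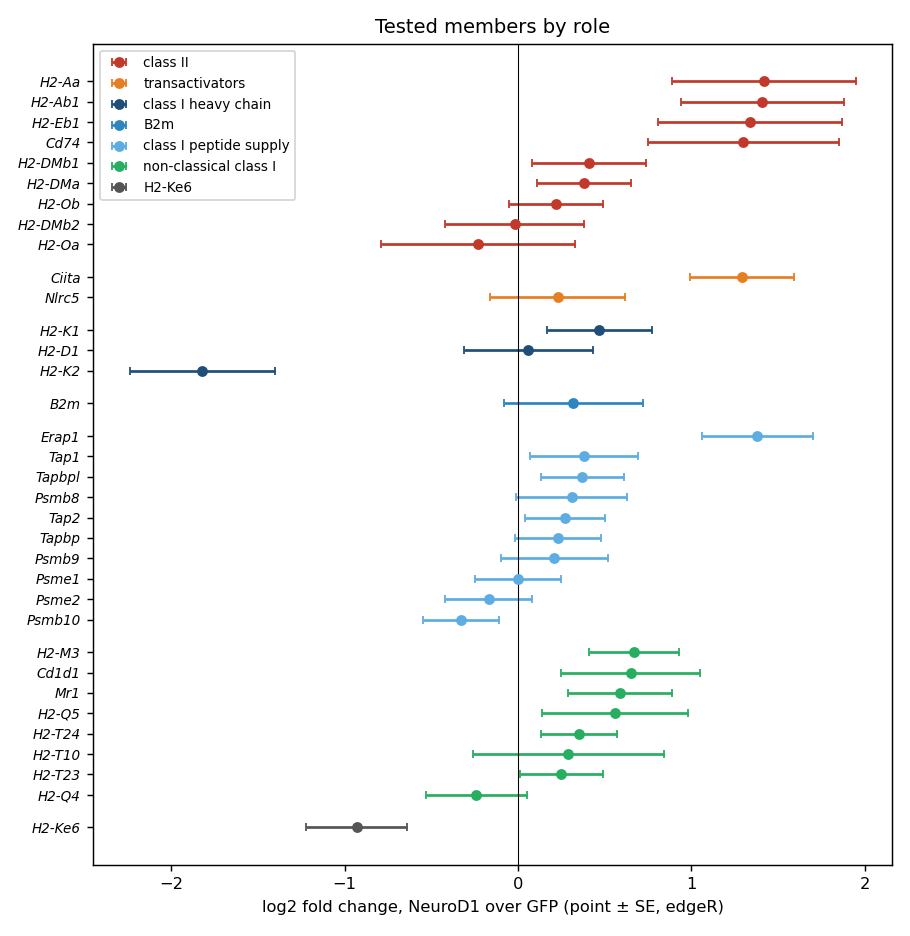
Log2 fold change of NeuroD1 over GFP (x axis, point ± SE from edgeR, 3 libraries a group) for the 34 tested members, coloured by role. The 4 class II points at the top, Ciita and Erap1 lie between 1.29 and 1.42, H2-K2 lies at -1.82, and the class I chains other than H2-K2 lie between 0.06 and 0.47.

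H2-Ab1 encodes the beta chain of the I-A class II molecule (chromosome 17, 34257689 to 34269419, plus strand, GRCm38). Its level was 13.6, 57.6 and 49.4 CPM in GFP replicates 1, 2 and 3 and 110, 127 and 83.2 CPM in NeuroD1 replicates 1, 2 and 3. All 3 NeuroD1 libraries exceeded all 3 GFP libraries, and GFP replicate 1 lay far under the other two. The log2 fold change was 1.41 (SE 0.47), or 2.66-fold (edgeR adjusted p = 0.147), and the DESeq2 adjusted p was 0.0397. H2-Aa, the alpha chain of the same molecule (chromosome 17, 34282744 to 34287823, minus strand), was at 8.91, 50.4 and 41.7 CPM with GFP and 105, 100 and 65.6 CPM with NeuroD1. That is 2.68-fold higher, with a log2 fold change of 1.42 (SE 0.53; edgeR adjusted p = 0.171). The groups did not overlap here either.

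H2-Eb1, the beta chain of the I-E molecule (chromosome 17, 34305867 to 34316674, plus strand), was at 8.51, 47.4 and 40 CPM with GFP and 88.5, 94.9 and 59.3 CPM with NeuroD1. It was 2.54-fold higher (log2 fold change 1.34, SE 0.53; edgeR adjusted p = 0.182), with the same order of libraries inside the GFP group. C57BL/6 mice are known to lack a working I-E alpha chain gene, and H2-Ea-ps, that gene's row, was listed at 0 in all 6 libraries. The beta chain was thus counted without its partner. Cd74, the invariant chain (chromosome 18, 60803848 to 60812652, plus strand), was at 29.3, 155 and 123 CPM with GFP and 257, 335 and 167 CPM with NeuroD1. The gap between the highest GFP and the lowest NeuroD1 library was small for Cd74, whose log2 fold change was 1.30 (SE 0.55; 2.47-fold, edgeR adjusted p = 0.196).

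These 4 genes stayed in similar proportion to each other. The count ratio of H2-Aa to H2-Eb1 lay between 1.04 and 1.18 in all 6 libraries, while the H2-Aa level ranged from 8.91 to 105 CPM. The ratio of H2-Eb1 to Cd74 lay between 0.283 and 0.356, that of H2-Aa to Cd74 between 0.298 and 0.408, and that of H2-Ab1 to Cd74 between 0.371 and 0.499. GFP replicate 1 lay outside the range of the other 5 libraries in the 2 ratios of H2-Ab1 to the other chains: H2-Aa over H2-Ab1 was 0.657 there and 0.785 to 0.953 elsewhere, and H2-Ab1 over H2-Eb1 was 1.60 there and 1.21 to 1.40 elsewhere. With GFP replicate 1 left out the 4 folds were 1.96 for H2-Ab1, 1.93 for H2-Aa, 1.82 for H2-Eb1 and 1.78 for Cd74, and their edgeR unadjusted p-values were 0.00581 to 0.0415, at or under those with all libraries. Leaving out any other single library gave folds of 2.08 to 3.57 for them. The unadjusted p of H2-Ab1 stayed under 0.05 in each case, while those of H2-Aa, H2-Eb1 and Cd74 were 0.0615, 0.0665 and 0.0717 without NeuroD1 replicate 1. Without NeuroD1 replicate 2 that of H2-Eb1 was 0.0607 and that of Cd74 0.0961, and without GFP replicate 3 that of Cd74 was 0.0611. In bulk tissue, more cells that carry class II and more class II RNA per cell cannot be told apart.

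**Figure D2:**
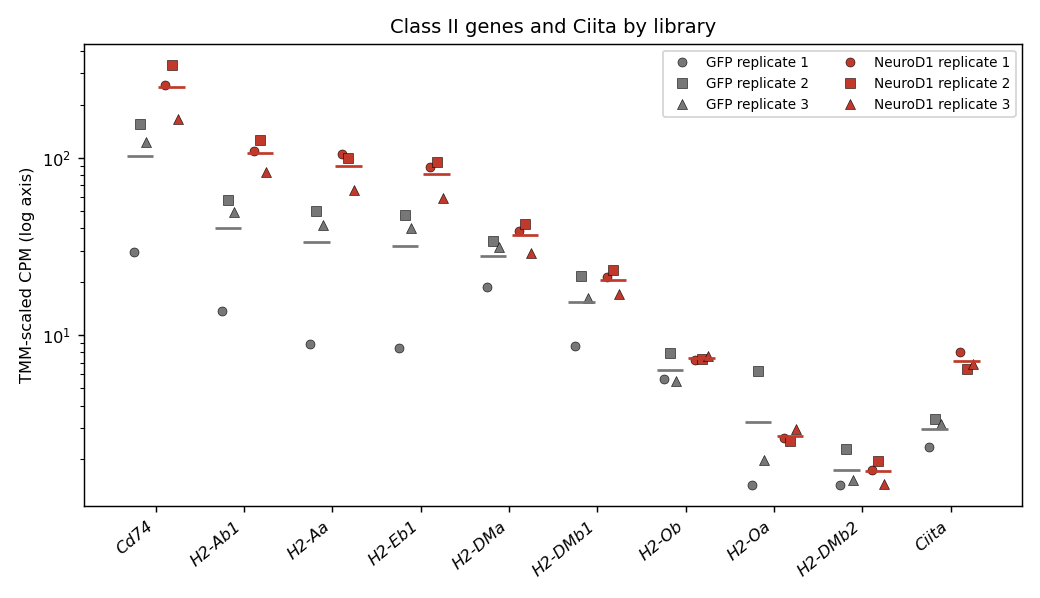
TMM-scaled CPM (y axis, log scale) of the 9 tested class II genes and Ciita in each library, with a bar at the mean of each group of 3. In Cd74, H2-Ab1, H2-Aa, H2-Eb1 and Ciita every NeuroD1 point lies above every GFP point, and the GFP replicate 1 circle lies lowest in these.

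Ciita, the class II transactivator (chromosome 16, 10480059 to 10528418, plus strand), stood at 2.33, 3.34 and 3.15 CPM with GFP and 8.06, 6.48 and 6.91 CPM with NeuroD1. The replicates of each group lay close together, and the groups were well apart. Its log2 fold change was 1.29 (SE 0.30; 2.44-fold, edgeR adjusted p = 0.136), with a DESeq2 adjusted p of 0.00991. Folds from 2.17 to 2.61 were obtained with any 1 library left out. Exons of Ciita share 329 bases with Dexi on the opposite strand, and Dexi averaged 29.5 ± 4.6 against 21.8 ± 4.0 CPM (GFP first, SD, n = 3), with overlapping groups. The part of Dexi reads in the Ciita counts was not tested. Nlrc5, the class I counterpart (chromosome 8, 94434356 to 94527272, plus strand), was at 9.01, 27.5 and 25.2 CPM with GFP and 21.2, 28.4 and 22.7 CPM with NeuroD1. Its groups overlapped (log2 fold change 0.23, SE 0.39; edgeR adjusted p = 0.73), and without GFP replicate 1 the fold was 0.899.

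The peptide exchange and editing genes of class II did not share the separation of the chains. H2-DMa, one chain of the H2-DM exchanger, was at 18.8, 34.1 and 31.4 CPM with GFP and 38.6, 42.3 and 28.9 CPM with NeuroD1, 1.30-fold higher with overlapping groups (edgeR adjusted p = 0.399). H2-DMb1, a beta chain of the exchanger, was at 8.71, 21.5 and 16.1 CPM with GFP and 21.2, 23.3 and 17.1 CPM with NeuroD1 (1.33-fold, adjusted p = 0.447). Without GFP replicate 1 the folds were 1.10 and 1.07. The second DM beta gene H2-DMb2 averaged 1.74 CPM with GFP and 1.70 CPM with NeuroD1. H2-Ob and H2-Oa, which form the DM inhibitor H2-DO found mainly in B cells, averaged 6.36 ± 1.31 against 7.40 ± 0.204 CPM and 3.22 ± 2.66 against 2.70 ± 0.231 CPM (GFP against NeuroD1, SD, n = 3). GFP replicate 2 alone held 6.28 CPM of H2-Oa, and without it the log2 fold change was 0.68 in place of -0.23. H2-Eb2, a second E beta gene, was counted 0, 1 and 0 times with GFP and 7, 1 and 4 times with NeuroD1, too few to test. Among the 9 tested class II genes the median log2 fold change was 0.41, and 4 were higher at an unadjusted p under 0.05 (12.5% of all tested genes were). Leaving out GFP replicate 1 gave a median of 0.14, leaving out GFP replicate 2 gave 0.73, and testing with no filter on low counts gave 0.89. Exons of H2-DMa share 360 bases with Brd2 on the other strand, and those of H2-Oa 321 bases with an antisense transcript. The difference between the fold of the chains and that of the DM and DO genes was not tested.

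Ordered by level per kilobase of exon, Cd74 came first (61.1 CPM per kb with GFP and 151 with NeuroD1). The exon length joins all annotated exons of a gene, 3798 bases for H2-Aa and 1944 for H2-Eb1. It can exceed the length of the transcript that is made, so the order is approximate. H2-Eb1 (16.4 and 41.6) and H2-Ab1 (15.7 and 41.6) did not differ beyond their spread. They were followed with GFP by H2-DMb1 (9.18), H2-Aa (8.86) and H2-DMa (8.15), neighbours within their spread. With NeuroD1 H2-Aa (23.7) stood above H2-DMb1 (12.2) and H2-DMa (10.6). Ciita had 0.308 and 0.750 CPM per kb.

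The classical class I heavy chains and their light chain had overlapping groups. Per kilobase of exon B2m was the most abundant member (1430 CPM per kb with GFP and 1780 with NeuroD1). Of the class I chains H2-K1 (99.1 and 137) and H2-D1 (63.8 and 66.4) came next. With NeuroD1 the mean of the class II gene Cd74 (151) stood above both. H2-D1 and Cd74 did not differ beyond their spread with GFP. B2m, the light chain shared by all class I molecules (chromosome 2, 122147686 to 122153083, plus strand), was at 774, 1440 and 1470 CPM with GFP and 1330, 2230 and 1020 CPM with NeuroD1. GFP replicates 2 and 3 exceeded NeuroD1 replicates 1 and 3, and the log2 fold change was 0.32 (SE 0.40; edgeR adjusted p = 0.636). Leaving out GFP replicate 1 gave 0.04, and leaving out NeuroD1 replicate 2 gave -0.05. H2-K1, the classical K heavy chain (chromosome 17, 33996017 to 34000347, minus strand), was at 187, 353 and 333 CPM with GFP and 424, 455 and 329 CPM with NeuroD1 (1.38-fold, adjusted p = 0.352, and 1.15-fold without GFP replicate 1). H2-D1, the classical D heavy chain (chromosome 17, 35262730 to 35267499, plus strand), was at 85.6, 229 and 179 CPM with GFP and 150, 227 and 137 CPM with NeuroD1. Its log2 fold change was 0.06 (SE 0.37) and -0.28 without GFP replicate 1. In all 3 genes GFP replicate 1 was the lowest library.

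Of the 10 peptide supply genes, 8 had a log2 fold change above 0 (51.7% of all tested genes did), with a median of 0.25. The groups were apart in 1 of them, on the higher side (14.2% of all tested genes were). Tap1, one of the 2 subunits of the peptide transporter, was at 24.8, 58.5 and 45.5 CPM with GFP and 52.1, 67.2 and 48.4 CPM with NeuroD1 (1.30-fold, edgeR adjusted p = 0.456). Its partner Tap2 averaged 39.5 ± 6.66 and 47.6 ± 10.7 CPM. The loading chaperone tapasin, Tapbp, averaged 168 and 197 CPM, and its relative Tapbpl 12.8 and 16.6 CPM. Without GFP replicate 1 the folds of Tap1, Tap2 and Tapbp were 1.06, 1.08 and 1.03. Tap1 and Psmb9 lie head to head, their promoter windows share 275 of 300 bases, and their exons share 212 bases on opposite strands. The proteasome activator subunits Psme1 and Psme2 had log2 fold changes of 0.00 (SE 0.25) and -0.17 (SE 0.25).

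Erap1 trims peptides in the endoplasmic reticulum to the length that class I grooves accept (chromosome 13, 74639568 to 74693201, plus strand). Its level was 29.1, 16.4 and 22.2 CPM with GFP and 64.8, 75.8 and 36.4 CPM with NeuroD1, and it was the one peptide supply gene whose groups did not overlap. The log2 fold change was 1.38 (SE 0.32; 2.61-fold, edgeR adjusted p = 0.136), with a DESeq2 adjusted p of 0.00511 and folds of 2.25 to 3.12 with any 1 library left out. GFP replicate 1 was the highest GFP library for Erap1, the reverse of its place in Tap1, Tap2 and Tapbp. Exons of Erap1 share 834 bases with Cast, the calpain inhibitor calpastatin, on the opposite strand, out of 7280. Cast was also higher with NeuroD1 (21.5 ± 4.62 against 49.7 ± 19.9 CPM, 2.31-fold), and reads of the shared bases cannot be told apart because the strand setting of the counting is not given. Transcript length moved with the comparison. Over tested genes ranked by exon length into 3 near-equal classes, the median log2 fold change was -0.15 in the short class, 0.04 in the middle class and 0.20 in the long class. Erap1 and Ciita belong to the long class, and relative to its median they were 2.27-fold and 2.12-fold higher. H2-Ab1, H2-Eb1 and Cd74 belong to the short class, and relative to its median they were 2.95-fold, 2.81-fold and 2.74-fold higher.

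**Figure D3:**
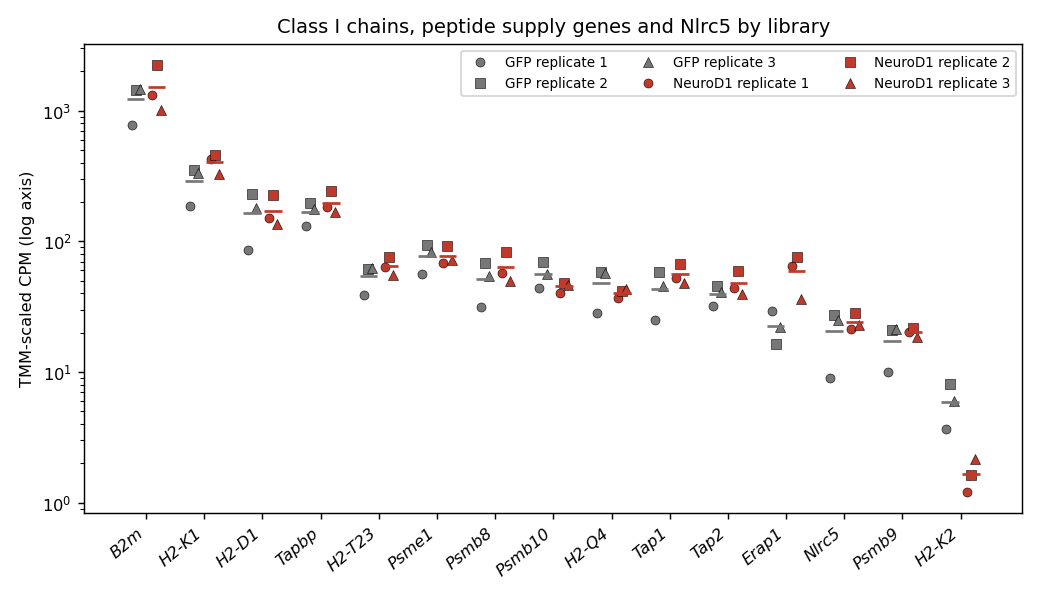
TMM-scaled CPM (y axis, log scale) of B2m, H2-K1, H2-D1, H2-K2, 8 of the 10 peptide supply genes (not Psme2 and Tapbpl), H2-Q4, H2-T23 and Nlrc5 in each library, with a bar at the mean of each group of 3. The groups are apart in Erap1 (16.4 to 29.1 against 36.4 to 75.8 CPM) and in H2-K2 (3.65 to 8.15 against 1.21 to 2.15 CPM), and overlap in the other 13 genes shown.

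Cells exposed to interferon replace 3 catalytic subunits of the proteasome with Psmb8, Psmb9 and Psmb10, which changes the peptides that are cut. Mean levels in CPM, GFP first, were 51.2 ± 18.4 and 63.4 ± 17.4 for Psmb8, 17.4 ± 6.44 and 20.1 ± 1.60 for Psmb9, and 56.7 ± 13.2 and 45.2 ± 4.14 for Psmb10 (SD, n = 3). Without GFP replicate 1 the folds were 1.02, 0.938 and 0.704, the last at an unadjusted p of 0.0425. Count ratios of each to the subunit it replaces do not depend on library scaling. Psmb8 over Psmb5 was 0.735, 1.92 and 1.05 with GFP and 1.23, 1.63 and 1.05 with NeuroD1. Psmb9 over Psmb6 was 0.107, 0.172 and 0.189 with GFP and 0.176, 0.122 and 0.164 with NeuroD1. Psmb10 over Psmb7 was 0.573, 1.16 and 0.779 with GFP and 0.427, 0.581 and 0.544 with NeuroD1. The mean log2 differences were 0.17, 0.00 and -0.65, with two-sided exact permutation p-values of 0.8, 1 and 0.2 (1, 1 and 0.6 after Benjamini-Hochberg adjustment over the 3). The smallest p that 3 against 3 libraries can give is 0.1. The groups overlapped in all 3 ratios.

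Non-classical class I genes present lipids, vitamin metabolites or restricted peptides, or act as ligands of natural killer receptors. Of 30 rows, 13 were listed at 0 in all libraries and 8 were tested, 7 of them with a log2 fold change above 0 (51.7% of all tested genes). H2-M3, which presents N-formylated bacterial peptides (chromosome 17, 37270220 to 37274484, plus strand), was at 8.20, 11.9 and 10.2 CPM with GFP and 15.1, 19.7 and 13.4 CPM with NeuroD1. Its groups did not overlap (1.59-fold, edgeR adjusted p = 0.178), and without GFP replicate 1 the fold was 1.43 at an unadjusted p of 0.0993. Its unadjusted p was also above 0.05 without GFP replicate 3 (0.0797), NeuroD1 replicate 1 (0.0544) or NeuroD1 replicate 2 (0.0871). Mr1, which presents vitamin B metabolites, was at 27.3, 24.7 and 23.7 CPM with GFP and 32.8, 56.4 and 24.8 CPM with NeuroD1, 1.5-fold higher and 1.14-fold without NeuroD1 replicate 2. The lipid-presenting Cd1d1 averaged 1.57 ± 0.522 and 2.49 ± 0.289 CPM. H2-T23 (Qa-1), whose receptor is on natural killer cells, averaged 54.3 ± 13.6 and 64.7 ± 10.3 CPM. H2-T24, H2-Q5 and H2-T10 had log2 fold changes of 0.35, 0.56 and 0.29. The groups did not overlap in Cd1d1, H2-T24 and H2-Q5, whose edgeR adjusted p-values were 0.332, 0.344 and 0.428. With H2-M3 these were 4 of the 8 tested, all on the higher side (14.2% of all tested genes were). H2-Q5 passed the filter on low counts only through its NeuroD1 libraries. H2-Q4 was the one tested member of this group below 0 (-0.24, SE 0.29), and without GFP replicate 1 it was 0.690-fold at an unadjusted p of 0.0265. H2-T22 was counted 1, 0 and 0 times with GFP and 5, 3 and 5 times with NeuroD1, and H2-M5 8, 11 and 18 against 2, 7 and 5 times.

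The 15 rows at 0 in all libraries comprised 8 H2-M genes (H2-M1, H2-M9, H2-M11, H2-M10.1, H2-M10.3, H2-M10.4, H2-M10.5 and H2-M10.6), H2-Q6 to H2-Q9, H2-T9, H2-L and H2-Ea-ps. A count of 0 allows up to 3 counts, which is 0.223 to 0.387 CPM in these libraries (counting error only). H2 genes of the K, Q and T groups are close copies of one another, and the sources used here do not say how reads that match several copies were counted. A row at 0, or a split between H2-Q or H2-T rows, is therefore uncertain. The remaining rows with too few counts to test were H2-Bl, H2-M10.2, H2-M2, H2-Q1, H2-Q10, H2-Q2 and H2-T3, none above 21 counts in a library.

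Lower levels with NeuroD1 were seen in a pair of members that do not present peptides. H2-K2 is annotated as a transcribed pseudogene beside H2-K1 (chromosome 17, 33974659 to 33978827, minus strand). It was at 3.65, 8.15 and 5.98 CPM with GFP and 1.21, 1.64 and 2.15 CPM with NeuroD1, from 36, 61 and 55 counts against 16, 17 and 24. The groups did not overlap, and the level was 3.53-fold lower (log2 fold change -1.82, SE 0.42; edgeR adjusted p = 0.136, DESeq2 adjusted p = 0.00691). H2-K1 lay on the other side of 0 in the same libraries. As a near-copy of H2-K1, H2-K2 holds counts that depend on how shared reads were assigned. H2-Ke6 carries an H2 symbol from its place in the complex but encodes a steroid dehydrogenase (chromosome 17, 34026033 to 34028060, minus strand). It was at 31.1, 52.6 and 41.6 CPM with GFP and 16.9, 29.3 and 19.7 CPM with NeuroD1, 1.90-fold lower (log2 fold change -0.93, SE 0.29; edgeR adjusted p = 0.141, DESeq2 adjusted p = 0.0498). Of its 1643 exon bases, 1419 are also annotated to Gm20427 on the same strand.

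Between H2-K2 and H2-M2, a stretch of 3.51 Mb (33974659 to 37483552) that holds 43 members, 148 other genes were listed and 85 were tested. Their median log2 fold change was -0.19, and 28 lay above 0 (51.7% of all tested genes did). At an unadjusted p under 0.05, 1 was higher and 14 were lower (12.5% and 11.5% of all tested genes). H2-Aa, H2-Ab1 and H2-Eb1 therefore stood above 0 among neighbours with a median below 0.

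Ciita is known to respond to interferon gamma through the kinase Jak1. Ifng itself was counted 0, 0 and 1 times with GFP and 2, 0 and 1 times with NeuroD1, too few to test. In the list of promoter-binding and upstream signalling genes 18 of 19 were tested, and 12 lay above 0 (51.7% of all tested genes did), with a median of 0.29. At an unadjusted p under 0.05, 3 were higher and 0 lower (12.5% and 11.5% of all tested genes). Jak1 averaged 137 and 225 CPM (1.64-fold), with groups that did not overlap. Nfya, a subunit of the NF-Y complex that binds the Y box, averaged 52.7 and 86.8 CPM (1.65-fold) with overlapping groups. The other subunits of NF-Y did not share this, with log2 fold changes of -0.03 for Nfyb and -0.40 for Nfyc. Of the RFX complex that binds the X box, Rfx5 had -0.24, Rfxap -0.15 and Rfxank -0.48, the last with groups that did not overlap (edgeR adjusted p = 0.241). The interferon-responsive Irf1 and Socs1 had log2 fold changes of -0.07 and 0.26. The interferon gamma receptor genes Ifngr1 and Ifngr2 had 0.32 and 0.42, and the groups of Ifngr2 did not overlap (edgeR adjusted p = 0.232). In the whole list the groups were apart in 3 genes on the higher side and 1 on the lower (14.2% and 15.3% of all tested genes). The part of interferon signalling in the Ciita level was not tested.

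Genes listed for the endosomal part of the class II pathway, proteases and others, all lay above 0: 9 of 9 tested (51.7% of all tested genes did), median 0.80. Of these, 4 were higher at an unadjusted p under 0.05 (12.5% of all tested genes). The same shares apply to the other lists of this paragraph. March1, a ubiquitin ligase that removes class II from the surface, averaged 20.3 ± 9.02 and 37.3 ± 4.71 CPM (1.83-fold). The cathepsin Ctsl averaged 504 ± 30.1 and 1010 ± 491 CPM with overlapping groups. Ctss, which cleaves the invariant chain, averaged 941 ± 17.7 and 1630 ± 498 CPM (SD, n = 3). The smallest edgeR adjusted p in this list was 0.161. Chaperones of class I loading in the endoplasmic reticulum lay above 0 in 7 of 7, median 0.60, with 4 higher at an unadjusted p under 0.05. Hspa5 averaged 205 and 399 CPM, Uggt1 78.2 and 127 CPM, and Pdia3, which sits in the loading complex with tapasin, 302 and 537 CPM. Constitutive proteasome genes differed little: 11 of 17 lay above 0, median 0.16, and 0 had an unadjusted p under 0.05. The 3 with the smallest p, Psma2, Psmb7 and Pomp, had log2 fold changes of 0.39, 0.34 and -0.34.

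Costimulatory genes and receptors that read MHC were tested in 13 of 14 cases, and 11 lay above 0 (51.7% of all tested genes did), with a median of 1.05. Cd8a, Cd8b1, Klrd1 and Klrk1 passed the filter on low counts only through their NeuroD1 libraries. A higher level was thus built into their being tested, and the counts and median of this list are not a test. At an unadjusted p under 0.05, 4 were higher and 0 lower (12.5% and 11.5% of all tested genes). Cd8b1, a chain of the CD8 coreceptor for class I, averaged 0.677 and 2.58 CPM (3.87-fold). Its counts were 2, 8 and 7 with GFP and 33, 19 and 38 with NeuroD1 (edgeR adjusted p = 0.14). Klrd1, a chain of the receptor for Qa-1, averaged 0.242 and 1.33 CPM. It was counted 0, 3 and 3 times with GFP and 23, 13 and 11 times with NeuroD1 (edgeR adjusted p = 0.141). Cd4, the coreceptor for class II that some myeloid cells also express, averaged 7.27 and 17.2 CPM (2.37-fold, edgeR adjusted p = 0.145).

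Markers of some cells that carry class II were higher in the same libraries. The summed level of the 11 class II rows was 96.3, 383 and 311 CPM with GFP and 632, 735 and 433 CPM with NeuroD1. For 8 markers of infiltrating and border macrophages the sum ranged from 848 to 2210 CPM with GFP and from 2620 to 8140 CPM with NeuroD1, with 8 of 8 above 0 and 6 higher at an unadjusted p under 0.05. For this and the other marker lists the shares of all tested genes are 12.5% higher, 11.5% lower and 51.7% above 0. GFP replicate 1 was lowest and NeuroD1 replicate 2 highest in both sums. Dendritic cell markers summed to 54.1 to 81.7 and 123 to 215 CPM, with 6 of 8 above 0 and 4 higher (Itgax, Xcr1, Clec9a and Wdfy4). Of the other markers in this list, Batf3 and Flt3 had log2 fold changes of -0.50 and -0.33, and Zbtb46 and Cd209a of 0.65 and 1.07. The groups overlapped in each of them. T cell markers summed to 2.94 to 9.78 and 13.7 to 19.7 CPM, with 2 of 4 tested genes higher (Cd3g and Cd5). Ly6c2, Xcr1, Clec9a, Cd209a, Cd3e and Cd3g passed the filter on low counts only through their NeuroD1 libraries. A higher level was thus built into their being tested. B cell markers were near 0, summing to 2.63 to 4.67 and 3.32 to 6.58 CPM. Ms4a1 had 0 counts in every GFP library and 2, 1 and 1 with NeuroD1, while Cd79a averaged 1.19 and 0.692 CPM. Both had too few counts to test. Microglial markers summed to 2580 to 3060 and 3010 to 4390 CPM, with 5 of 8 above 0, 0 higher and 1 lower (Siglech). Endothelial markers were on the other side: 445 to 686 and 195 to 353 CPM, 0 of 8 above 0 and 6 lower. In astrocyte markers 2 of 6 were lower (Gfap and S100b), and in neuronal markers 0 of 6 passed this limit in either direction. In replicate order, neuronal markers summed to 4400, 2510 and 3520 CPM with GFP and to 4250, 1650 and 5140 CPM with NeuroD1.

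Relative to the macrophage sum, the class II sum was 0.114, 0.173 and 0.146 with GFP and 0.118, 0.0903 and 0.165 with NeuroD1, so that these groups overlapped. Relative to the dendritic cell sum it was 1.78, 4.68 and 4.43 with GFP and 3.27, 3.42 and 3.51 with NeuroD1, again overlapping. Relative to the microglial sum it was 0.0314, 0.127 and 0.120 with GFP and 0.155, 0.167 and 0.144 with NeuroD1, and the groups did not overlap. Lyz2 made up most of the macrophage sum (773 of 848 CPM in GFP replicate 1 and 7590 of 8140 CPM in NeuroD1 replicate 2). Itgax and Wdfy4 gave 76.9 and 95.6 of the 193 CPM of the dendritic cell sum in NeuroD1 replicate 1. The ratios to these sums therefore rest mainly on few genes. The part of macrophages, dendritic cells and microglia in the class II levels was not tested.

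**Figure D4:**
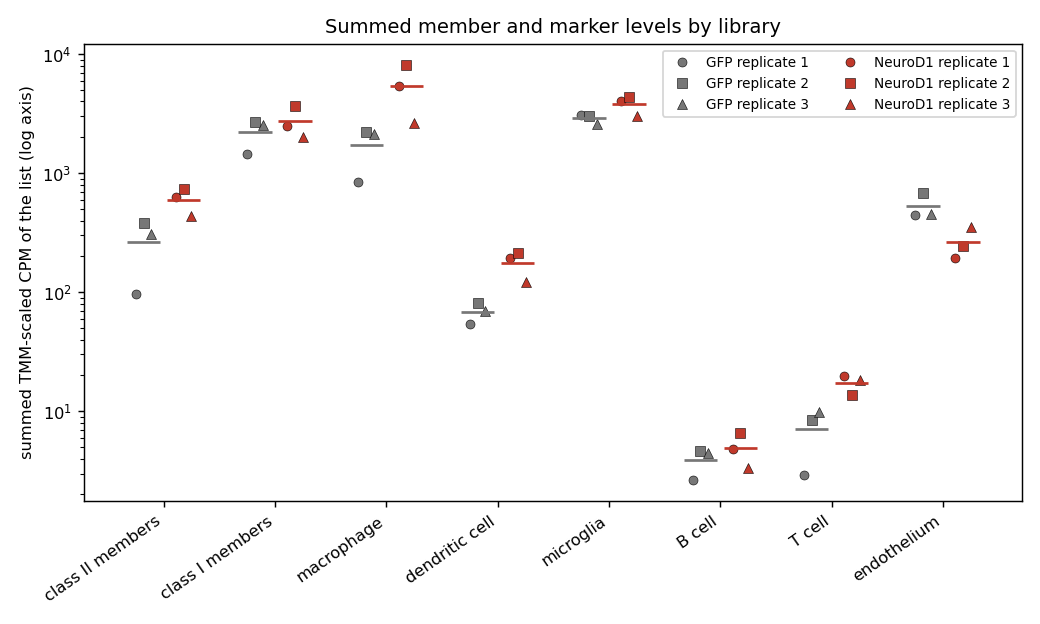
Summed TMM-scaled CPM (y axis, log scale) of the class II members, the class I members and 6 marker lists in each library, with a bar at the mean of each group of 3. The class II, macrophage, dendritic cell and T cell sums are higher in all 3 NeuroD1 libraries, the class I, microglial and B cell sums overlap, and the endothelial sum is lower.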

How the data were processed

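Gene expression was measured by bulk RNA-seq in 6 samples of mouse brain, 3 per group. Raw counts per gene were deposited by the authors: per the file headers they come from featureCounts on an mm10 gene file, and per the submitters' processing notes HISAT2 2.0.1, DESeq2 1.16.1 and GRCm38 were used. The sources used here do not give the strand setting, the treatment of multi-mapping reads or the annotation release. Samples were grouped by the treatment label. Total counts per library were 7753101 to 13440244, so 1 count is 0.0744 to 0.129 CPM.

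Counts were fitted with edgeR 4.0.16 (R 4.3.3) by the quasi-likelihood test with TMM scaling, treatment as the one term and filterByExpr (minimum count 10, minimum total 15), and p-values were adjusted by Benjamini-Hochberg over all 14852 tested genes (threshold 0.05). Each SE is the log2 fold change divided by the square root of F. Alternatives were DESeq2 1.42.0, limma-voom (limma 3.58.1), 2 other scalings, 2 other filters, a replicate block and leaving out each library. DESeq2 with each library left out was added after seeing the data. Subunit ratios were compared by exact permutation. Positions and exon lengths came from GENCODE M21 (GRCm38), with a length for 96.5% of tested genes by symbol. Scripts were tested on simulated data. The members and the gene lists were chosen with earlier results of these data known, and the motif letters after the windows had been seen. All members that passed the filter are named, and of each pathway list the 3 genes with the smallest edgeR p, except 1 that is not reported here. Nfyb, Nfyc, Rfx5, Rfxap, Rfxank, Irf1, Socs1, Ifng, Ifngr1, Ifngr2, Batf3, Flt3, Zbtb46, Cd209a, Lyz2, Ly6c2, Ms4a1, Cd79a, Cd3e, Cd8a and Klrk1 were named after their values were seen.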

Additional observations from a re-analysis of the deposited data

How the results depend on the processing

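H2-Aa, H2-Ab1, H2-Eb1, Cd74, Ciita, Erap1, H2-K2 and H2-Ke6 kept their direction under every setting run (6 other fits, a replicate block and 6 fits with 1 library left out). The number of members past the adjusted threshold was 0 in the main edgeR fit and 5 with DESeq2, and that of all genes 0 and 1374. At a threshold of 0.1 edgeR called 0 of both. DESeq2 with 1 library left out, added after seeing the data, called 6, 1 and 0 members when GFP replicates 1, 2 and 3 were dropped in turn, and 0, 4 and 6 for the NeuroD1 replicates in the same order. Over all genes these calls numbered 2046, 162, 224, 256, 1003 and 2380. In edgeR, leaving out 1 library gave 0 to 1 genes past it, the 1 being Neurod1 without NeuroD1 replicate 2. With the replicate block 2 members (H2-K2 and H2-Ke6) and 479 genes passed. The replicate numbers are not known to pair the samples: deviations of same-numbered libraries correlated at 0.539, 0.371 and 0.039, and GFP replicate 3 correlated better with NeuroD1 replicate 2 (0.129). At an unadjusted p under 0.05 the 9 members became 5 to 11 and the 3564 genes 1804 to 4374 with 1 library left out. The class II median of 0.41 became 1.28 under the stricter filter, which tests fewer genes. The Neurod1 log2 fold change of 2.68 was 2.71 with DESeq2, 2.58 with the block (adjusted p = 0.0447) and 2.33 to 3.04 with 1 library left out.

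Signs turned in members with small differences, and the cause was not tested. With upper quartile scaling Psme1 was -0.09 and H2-D1 -0.04, and with the stricter filter Psme1 was -0.01. H2-Oa was 0.11 with limma-voom and 0.01 with the block, and H2-DMb2 0.01 without a filter. With 1 library left out, log2 fold changes ran from -0.21 to 0.17 for Psme1, -0.61 to 0.68 for H2-Oa, -0.17 to 0.21 for H2-DMb2, -0.09 to 0.39 for Psmb9, -0.28 to 0.37 for H2-D1, -0.19 to 0.62 for H2-T10, -0.05 to 0.54 for B2m and -0.15 to 0.50 for Nlrc5. Dropping GFP replicate 1 gave negative values for Psme1, Psmb9, H2-D1, H2-T10 and Nlrc5. The log2 difference of Psmb8 over Psmb5 ran from -0.15 to 0.54 and that of Psmb9 over Psmb6 from -0.25 to 0.16. Depth limits the 10 members with too few counts to test.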
